A study of Mus musculus with 6 samples.

Results

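The mitochondrial respiratory chain is built from proteins of 2 genomes, and the genes described here are its nuclear-encoded subunits in the mouse melanoma line B16F10, whose cells make pigment. They were chosen by symbol, as protein-coding genes named Nduf with a subunit letter and number, Sdha to Sdhd, Uqcr, Cox4 to Cox8 and Atp5, without the Ndufaf assembly factors, and with at least 100 reads summed over all libraries. Of the 54838 genes counted, 85 carry such a symbol and 76 had enough reads. These are 36 genes of complex I, 4 of complex II, 8 of complex III, 11 of complex IV and 17 of complex V. Cells were treated with 10 µM GSK126 (3 samples) or with the vehicle DMSO (3 samples). GSK126 is an inhibitor of EZH2, the histone methyltransferase of Polycomb repressive complex 2. No cells carried an engineered allele per the labels, and the sources used here do not give the length of treatment. Nothing in the labels says that the samples of a group came from separate cultures, so the p-values reflect a spread among samples that may be technical.

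Complexes I to IV pass electrons to oxygen, and complexes I, III and IV pump protons across the inner mitochondrial membrane. Complex V, the ATP synthase, lets the protons flow back and makes ATP. Complex II, which is also the succinate dehydrogenase of the tricarboxylic acid cycle, is encoded in the nucleus alone, while the other complexes each hold some subunits encoded in mitochondrial DNA. Transcription of the nuclear genes is known to depend on factors such as NRF1, the ETS-family factor GABP and the oestrogen-related receptors, with PGC-1α as a coactivator.

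With GSK126, 1 of the 76 subunit genes passed the test and was higher, none was lower, and 75 did not pass. The gene that rose was Cox7a2l, which encodes SCAF1, a supercomplex factor described as joining complexes III and IV. Which allele these cells carry, and whether its product joins the complexes in them, was not examined. Among all 13601 genes tested, 5.87% were called higher and 5.18% lower, 11.1% in all, at an adjusted p below 0.05 (edgeR quasi-likelihood test, Benjamini-Hochberg adjustment). The median log2 fold change of the 76 genes was -0.07, against -0.00 for all tested genes, and 55 of the 76 were negative (72.4%, against 50.1% of all tested genes). GSK126 replicate 3 was the lowest of all 6 libraries for 55 of the 76 genes (72.4%, against 23.2% of all tested genes). Without that library the median was 0.03 and 47 of the 76 genes were positive (61.8%, against 50% of all tested genes). In that fit 1 of the 76 was called higher, again Cox7a2l, and 1 lower, Cox7b, against 4.64% higher and 4.37% lower of all tested genes, 9.01% in all. Median log2 fold changes of the 76 genes and of each complex are therefore given with and without GSK126 replicate 3. So are the fold changes that this library moved most among the genes described below.

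The sequence before the RefSeq start of Cox7a2l is shown beside that of its paralog Cox7a2, the complex IV subunit it resembles, because the first was the gene that rose and the second had lower values in every GSK126 library, without passing the test. Both stretches end at the base before the first transcription start that RefSeq lists for the gene on GRCm38.p6, and both are written 5′ to 3′ on the gene's strand. The gene spans in the files begin further upstream, at 83517330 for Cox7a2l and 79759878 for Cox7a2 on the minus strand. The Cox7a2l stretch thus lies wholly inside the counted gene, and the last bases of the Cox7a2 stretch overlap its gene. They hold 200 bases each and no match to any of the motifs searched, so they carry no capitals.
Cox7a2l, chr17:83514334-83514533 (-): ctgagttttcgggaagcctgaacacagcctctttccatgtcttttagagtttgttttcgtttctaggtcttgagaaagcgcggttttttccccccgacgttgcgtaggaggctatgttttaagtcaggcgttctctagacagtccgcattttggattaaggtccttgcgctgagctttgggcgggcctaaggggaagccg
Cox7a2, chr9:79759854-79760053 (-): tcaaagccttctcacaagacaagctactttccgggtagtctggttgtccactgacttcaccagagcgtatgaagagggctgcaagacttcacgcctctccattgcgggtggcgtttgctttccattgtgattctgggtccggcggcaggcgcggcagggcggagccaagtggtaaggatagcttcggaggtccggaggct
A further 3 windows show the best known respiratory promoter element, the NRF1 motif (GCGCA, any base, then GCGC), in capitals, in genes of complexes IV, II and I.
Cox6a1, chr5:115349047-115349126 (-): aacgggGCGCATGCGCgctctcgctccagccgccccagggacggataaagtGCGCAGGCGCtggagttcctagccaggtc
Sdhd, chr9:50603900-50603979 (-): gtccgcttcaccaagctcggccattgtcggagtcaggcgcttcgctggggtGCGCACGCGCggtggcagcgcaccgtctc
Ndufa11, chr17:56717651-56717730 (+): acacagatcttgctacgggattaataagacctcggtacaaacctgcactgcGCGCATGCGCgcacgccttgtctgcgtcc
Cox6a1 holds 2 such matches, and Sdhd and Ndufa11 hold 1 each in the bases shown.

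The 250 bases before the RefSeq start were searched on both strands for 62 of the 76 genes, and 14 had no entry under their symbol. The NRF1 motif was found in 12 of the 62 (19.4%), against 8.98% of 9174 tested protein-coding genes. The oestrogen-related receptor half-site AAGGTCA was found in 5 (8.06%), against 2.57%. The ETS motif CCGGAAG was found in 11 (17.7%), against 14.9%, and the cyclic-AMP element core TGACGT in 8 (12.9%), against 10.6%. The hypoxia element core ACGTG, which can overlap the cyclic-AMP core, was found in 12 (19.4%), against 22.5%. The YY1 motif AAGATGGC was found in none of the 62, against 2.08%. These matches describe letters in a window and were not tested for binding.

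The libraries held 14250457, 14713373 and 14410812 counts for GSK126 replicates 1 to 3 and 13594939, 14072673 and 13597959 for DMSO replicates 1 to 3. The 76 genes took 1.07%, 1.05% and 0.906% of the counts with GSK126 and 1.03%, 1.03% and 1.06% with DMSO. GSK126 replicate 3 also stood apart over all genes, at -20.9 on a second principal component (18.7% of the variance) where the other GSK126 libraries lay at 13.3 and 13.8. All 10 pigment cell markers were detected, with summed levels of 23886 to 25146 CPM (counts scaled to a common library size) with GSK126 and 22468 to 23710 CPM with DMSO. Macrophage markers summed to at most 1.33 CPM in any library, with Adgre1, Cd14 and Itgam at 0 throughout. Lymphocyte markers summed to at most 0.558 CPM, with Cd3e, Cd3g, Cd4 and Cd8a at 0, and keratinocyte markers to at most 1.71 CPM, with Krt5, Krt1 and Krt10 at 0. Fibroblast markers summed to 17.1 to 22.4 CPM with GSK126 and 23.2 to 26.5 CPM with DMSO, with none at 0 throughout. Endothelial markers summed to 5.72 to 7.40 CPM with GSK126 and 3.23 to 3.48 CPM with DMSO, with Cdh5, Kdr, Tek and Emcn at 0. Ezh2, whose protein the compound inhibits, had 191, 197 and 192 CPM with GSK126 and 192, 184 and 192 CPM with DMSO (log2 fold change 0.03, SE 0.04, edgeR adjusted p 0.669).

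Summed over the 76 genes, expression was 10667, 10542 and 9107 CPM in GSK126 replicates 1 to 3, against 10322, 10322 and 10696 CPM in DMSO replicates 1 to 3. GSK126 replicate 3 was below every other library, and the other GSK126 libraries lay within the range of the DMSO libraries. The means were 10105 ± 867 CPM with GSK126 and 10447 ± 216 CPM with DMSO (SD, n = 3 each), so the difference was smaller than the spread among the GSK126 samples. CPM is a share of all RNA counted, so fewer transcripts per cell and fewer cells that express a gene cannot be told apart here.

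**Figure D1:**
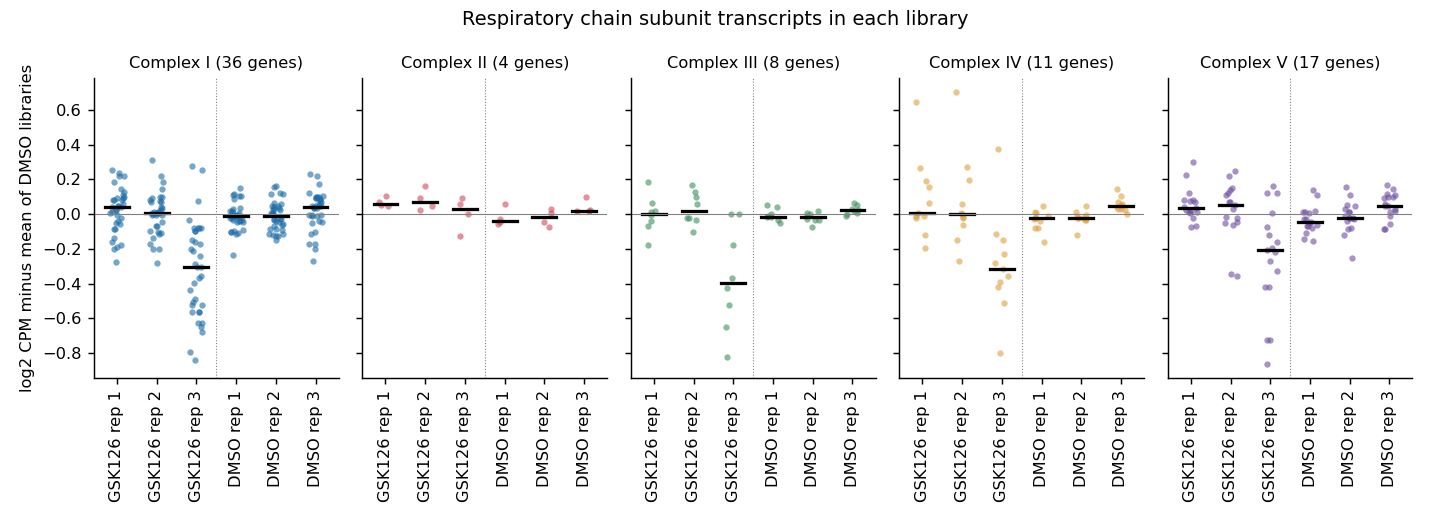
Log2 CPM in each library minus the mean of the DMSO libraries, for the 76 subunit genes by complex, with GSK126 replicates left of DMSO replicates; each point is a gene and each black bar a median. The points of GSK126 replicate 3 sit lower than those of the other libraries in complexes I, III, IV and V, and least so in complex II.

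Complex I takes electrons from NADH, and its 36 nuclear genes included none that passed the test in either direction. Their median log2 fold change was -0.09 with all libraries, with 29 of 36 negative, and 0.02 without GSK126 replicate 3, with 23 of 36 positive. The library was the lowest of 6 for 27 of the 36. Its median deviation from the mean of the other GSK126 libraries was -0.37 on the log2 CPM scale. The parts of the complex had these median deviations. The 7 core subunits, among them those that carry the flavin and the iron-sulfur clusters, had a median deviation of -0.07. The 13 accessory subunits named Ndufa stood at -0.47, the 12 named Ndufb or Ndufc at -0.39, and the 4 accessory subunits named Ndufs or Ndufv at -0.52.

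Ndufs1, the largest core subunit, had 229, 234 and 239 CPM with GSK126, against 253, 253 and 251 CPM with DMSO. Every GSK126 library lay below every DMSO library, but the difference did not pass the test (log2 fold change -0.11, SE 0.04, edgeR adjusted p 0.112, and 0.0797 without GSK126 replicate 3). Ndufs6, a zinc-binding accessory subunit, had the most negative change in the complex, with 32.7, 33.1 and 23.1 CPM with GSK126 against 36.1, 34.2 and 42.1 CPM with DMSO. Its groups did not overlap either. The log2 fold change was -0.34 (SE 0.15, edgeR adjusted p 0.201) with all libraries and -0.19 (edgeR adjusted p 0.312) without GSK126 replicate 3. An annotated pseudogene named for Ndufs6 had 284 reads over all libraries, 10% of those of the gene. Of the 50-base stretches of Ndufs6, 7.7% occur in other annotated transcripts. Ndufb5, a membrane-arm subunit, had the most positive change with all libraries, with 79.6, 74.3 and 90.4 CPM with GSK126 against 69.3, 68.6 and 87.0 CPM with DMSO. Its groups overlapped, replicate 3 was the highest library of both groups, and the log2 fold change was 0.12 (SE 0.11) with all libraries and 0.04 (SE 0.11) without GSK126 replicate 3. In that fit Ndufv3, an accessory subunit, was the most positive of the complex at 0.27 (edgeR adjusted p 0.0871). Ndufb3, the most abundant gene of the complex per length at 109 FPKM (fragments per kilobase of transcript, scaled for depth), had 93.8, 82.5 and 56.4 CPM with GSK126 against 86.3, 84.8 and 95.4 CPM with DMSO. GSK126 replicate 3 was far below the other 5 libraries, which lay between 82.5 and 95.4 CPM. Its log2 fold change was -0.19 with all libraries and -0.01 without that library.

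Ndufa4, which carries a complex I name but is assigned biochemically to complex IV, had 256, 253 and 163 CPM with GSK126 against 250, 246 and 261 CPM with DMSO. GSK126 replicates 1 and 2 lay within the range of the DMSO libraries and replicate 3 far below it. The log2 fold change was -0.17 with all libraries and 0.01 without replicate 3. Its hypoxia-induced relative Ndufa4l2 had only 5, 2 and 4 reads with GSK126 and 9, 2 and 6 reads with DMSO, and stayed outside the 76 genes.

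In complex II, GSK126 replicate 3 lay close to the other libraries. Its 4 genes had a median log2 fold change of 0.06 both with and without that library, and replicate 3 was the lowest of 6 for 1 of the 4, with a median deviation of -0.06. None of the 4 passed the test. Sdha, the flavoprotein that oxidises succinate, had 405, 418 and 417 CPM with GSK126, against 383, 394 and 398 CPM with DMSO. All GSK126 libraries were above all DMSO libraries (log2 fold change 0.08, SE 0.04, edgeR adjusted p 0.232). Sdhc, a membrane anchor, had 135.8, 141.3 and 131.64 CPM with GSK126 and 131.56, 119.9 and 127.9 CPM with DMSO, without overlap but with only a small gap between the nearest libraries (log2 fold change 0.11, SE 0.05, edgeR adjusted p 0.248). Sdhd, the other anchor and the most abundant gene of the complex per length at 156 FPKM, had 197, 197 and 191 CPM with GSK126 against 184, 194 and 193 CPM with DMSO. Sdhb, the iron-sulfur subunit, had 272, 263 and 237 CPM with GSK126 against 249, 251 and 278 CPM with DMSO. For both of these the groups overlapped.

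Complex III moves electrons from ubiquinol to cytochrome c. None of its 8 genes passed the test, and the GSK126 and DMSO values overlapped for each of the 8. The median log2 fold change was -0.10 with all libraries and -0.00 without GSK126 replicate 3. The 2 core proteins and the Rieske iron-sulfur protein had a median deviation of 0.01 in replicate 3, whereas the 5 small subunits had -0.59. The core protein gene Uqcrc2 had 228, 223 and 227 CPM with GSK126 against 224, 228 and 227 CPM with DMSO, so all 6 libraries lay close together. The small subunit gene Uqcr10 had 101.1, 103.6 and 54.3 CPM with GSK126 against 95.5, 97.7 and 96.4 CPM with DMSO. The third GSK126 library deviated by -0.91 from the mean of the other GSK126 libraries on the log2 CPM scale, or 0.533-fold when back-transformed. Its log2 fold change was -0.16 with all libraries and 0.08 without that library. Uqcrh, the hinge protein, had 138, 136 and 90.3 CPM with GSK126 against 121, 119 and 123 CPM with DMSO. Its log2 fold change was 0.00 (SE 0.15) with all libraries and 0.18 without replicate 3, where the edgeR adjusted p was 0.0506. Uqcr11 had the most negative change with all libraries, -0.23, and -0.05 without replicate 3, with 42.5, 50.1 and 30.4 CPM with GSK126 against 47.0, 48.1 and 49.1 CPM with DMSO. Uqcrb was the most abundant gene of the complex per length, at 124 FPKM, though 25.5% of its 50-base stretches occur in other annotated transcripts.

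Complex IV, cytochrome c oxidase, reduces oxygen to water. Of its 11 genes 1 was called higher and none lower with all libraries, and 1 was called in each direction without GSK126 replicate 3. The median log2 fold change was -0.09 with all libraries and 0.02 without that library, which was the lowest of 6 for 9 of the 11 and had a median deviation of -0.39. The catalytic core of the complex is encoded in mitochondrial DNA, so all 11 genes encode proteins outside that core. The genes with a call were Cox7a2l and Cox7b.

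Cox7a2l (ENSMUSG00000024248, GRCm38 chromosome 17, 83501918 to 83517330) had 77.3, 80.3 and 64.0 CPM with GSK126, against 50.7, 45.2 and 51.7 CPM with DMSO. Every GSK126 library lay above every DMSO library, with replicate 3 the lowest of its group. The means were 73.9 ± 8.68 CPM with GSK126 and 49.2 ± 3.48 CPM with DMSO (SD, n = 3 each). The log2 fold change was 0.59 (SE 0.10, 95% interval 0.35 to 0.82, edgeR adjusted p 0.0137). Without GSK126 replicate 3 it was 0.68 (SE 0.07, edgeR adjusted p 0.00527). The call rested on several single libraries. The edgeR adjusted p was 0.0523 without DMSO replicate 1, 0.0564 without DMSO replicate 2 and 0.0523 without GSK126 replicate 1, and the log2 fold change stayed between 0.52 and 0.68 over all 6 fits that left out 1 library. Cox7a2l shares no exons with another gene, and 13.8% of its 50-base stretches occur in a pseudogene, Gm6969.

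Cox7a2 had 121, 109 and 119 CPM with GSK126, against 131, 129 and 134 CPM with DMSO. Every GSK126 library was below every DMSO library, in the direction opposite to Cox7a2l, but the difference did not pass the test (log2 fold change -0.18, SE 0.05, edgeR adjusted p 0.0802). Without GSK126 replicate 3 the log2 fold change was -0.19 (edgeR adjusted p 0.0938). The muscle isoform Cox7a1 had 4, 2 and 0 reads with GSK126 and 2, 4 and 3 reads with DMSO.

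Cox7b (GRCm38 chromosome X, 106015700 to 106022450), a small membrane subunit, had 221, 228 and 145 CPM with GSK126, against 250, 250 and 260 CPM with DMSO. All GSK126 libraries were below all DMSO libraries, and replicate 3 was far below the other GSK126 libraries. The log2 fold change was -0.35 (SE 0.16, edgeR adjusted p 0.193) with all libraries. Without replicate 3 it was smaller, -0.17, with a smaller SE of 0.04, and it passed the test by a narrow margin (edgeR adjusted p 0.0490).

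**Figure D2:**
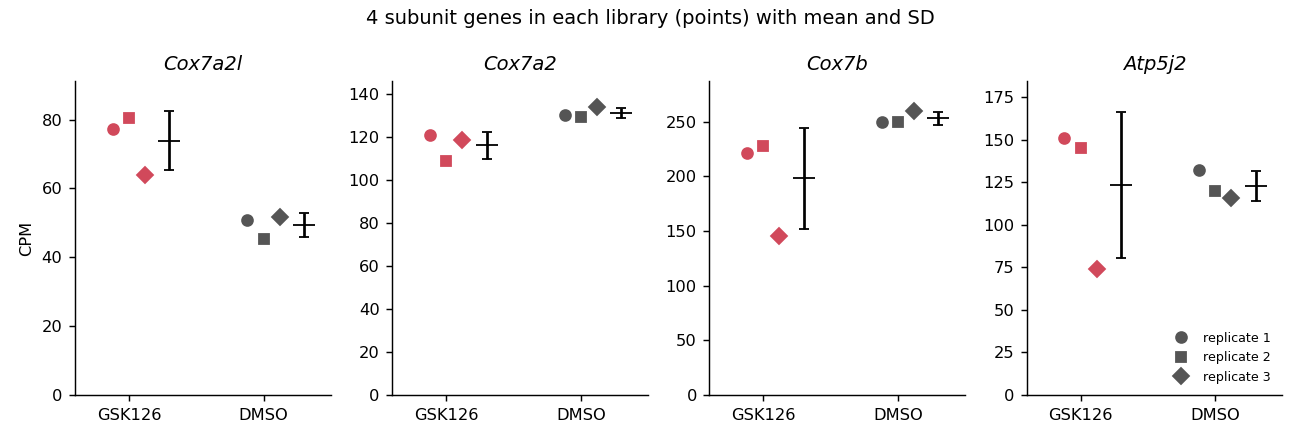
CPM in each library for 4 subunit genes, with GSK126 points left of DMSO points, symbols for the replicate, and a cross with bars for the mean and SD of each group (n = 3). Cox7a2l lies higher and Cox7a2 lower in all GSK126 libraries, and GSK126 replicate 3 (diamond) lies far below the other GSK126 libraries for Cox7b (145 CPM) and Atp5j2 (74.0 CPM).

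The broadly expressed forms of the other isoform pairs carried nearly all reads. Cox4i1, which links complex IV to the energy state of the cell, had 211, 222 and 162 CPM with GSK126 against 210, 208 and 221 CPM with DMSO. Cox6a1 had 152, 161 and 110 CPM with GSK126 against 126, 131 and 143 CPM with DMSO, and its edgeR adjusted p was 0.0797 without GSK126 replicate 3. Cox6b1 had 177, 177 and 152 CPM with GSK126 against 181, 174 and 182 CPM with DMSO. Cox8a, the most abundant of all 76 genes per length at 420 FPKM, had 252, 260 and 182 CPM with GSK126 against 215, 234 and 232 CPM with DMSO. In each of these 4 genes GSK126 replicate 3 was the lowest library, and none passed the test. With all libraries the log2 fold change was -0.10 for Cox4i1, 0.08 for Cox6a1, -0.08 for Cox6b1 and 0.03 for Cox8a, and without GSK126 replicate 3 it was 0.02 for Cox4i1, 0.23 for Cox6a1, -0.01 for Cox6b1 and 0.17 for Cox8a. The muscle isoform Cox6a2 had 2, 2 and 0 reads with GSK126 and 4, 3 and 7 reads with DMSO. The lung isoform Cox4i2, the muscle isoform Cox8b and the testis isoforms Cox6b2, Cox7b2 and Cox8c had 0 reads in every library.

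Complex V held 17 of the genes, and none passed the test. Their median log2 fold change was -0.04 with all libraries and 0.04 without GSK126 replicate 3, which was the lowest of 6 for 12 of the 17 with a median deviation of -0.25. Among the parts of the enzyme the median deviation was -0.07 for the 5 subunits of the catalytic head, -0.25 for the 4 of the peripheral stalk, 0.02 for the 3 genes of the proton-carrying ring and -0.63 for the 4 small membrane subunits. The remaining gene, Atp5s, encodes coupling factor B. In the ring, Atp5g3, with most of the reads, deviated by -0.34, against 0.02 for Atp5g1 and 0.19 for Atp5g2. Atp5b, the catalytic subunit and the most abundant of the complex per length at 255 FPKM, had 1795, 1756 and 1690 CPM with GSK126 against 1748, 1758 and 1842 CPM with DMSO, with overlap between the groups. Atp5f1, a stalk subunit, had 357, 364 and 367 CPM with GSK126 against 329, 301 and 355 CPM with DMSO. Its groups did not overlap, and the difference did not pass the test (log2 fold change 0.14, SE 0.06, edgeR adjusted p 0.187).

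Atp5j2, a small membrane subunit, showed the widest gap in replicate 3 of all 76 genes, with 151, 145 and 74.0 CPM with GSK126 against 133, 120 and 116 CPM with DMSO. The third library had 0.502 times the mean of the other GSK126 libraries, while those 2 lay above all DMSO libraries. Its log2 fold change was 0.01 (SE 0.24) with all libraries and 0.27 (SE 0.07, edgeR adjusted p 0.0559) without replicate 3. Atp5e, the smallest subunit of the head, had 56.7, 53.3 and 30.4 CPM with GSK126 against 51.6, 56.2 and 59.6 CPM with DMSO, a deviation of -0.84. Its log2 fold change was -0.25 with all libraries and -0.02 without replicate 3. The ring protein is made from 3 genes that differ in the leader peptide. Atp5g3 carried most of its reads, with 199, 199 and 158 CPM with GSK126 against 186, 191 and 192 CPM with DMSO. Atp5g1 had 15.9, 19.0 and 17.6 CPM with GSK126 against 14.5, 16.1 and 18.2 CPM with DMSO. For Atp5g1, 11.1% of the 50-base stretches occur in other annotated transcripts. Atp5g2 had 5.65, 3.60 and 5.23 CPM with GSK126 against 5.29, 3.91 and 5.19 CPM with DMSO, and 38.4% of its 50-base stretches occur in other annotated transcripts, so its level is uncertain.

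**Figure D3:**
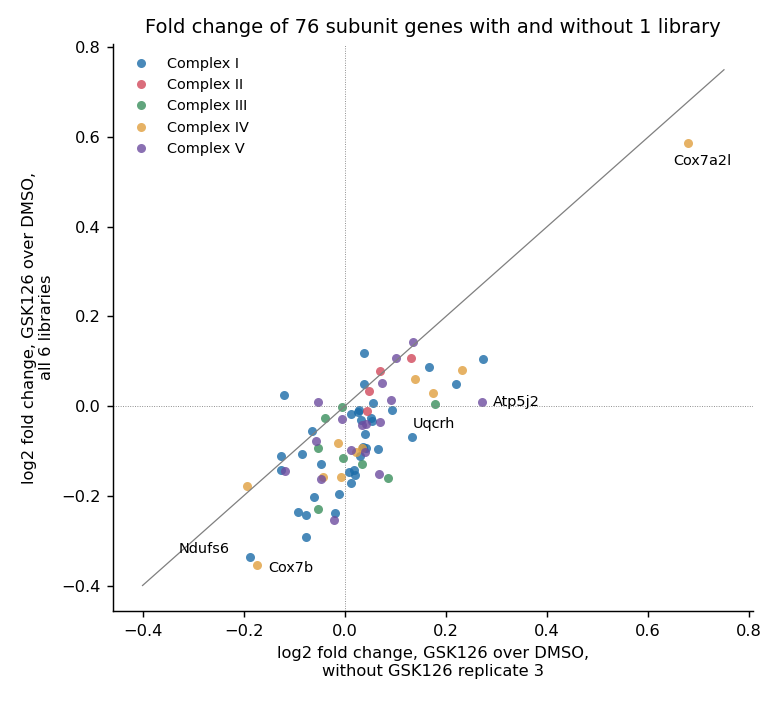
Log2 fold change of GSK126 over DMSO for each of the 76 genes, without GSK126 replicate 3 on the x axis and with all 6 libraries on the y axis, coloured by complex. Most points lie below the diagonal, the median is 0.03 without that library and -0.07 with it, and Cox7a2l stands apart at 0.68 and 0.59.

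Across all 76 genes the GSK126 and DMSO values did not overlap for 4 genes that were higher with GSK126 and 6 that were lower, or 13.2%. The background over all tested genes was 17.6% higher and 16.8% lower, 34.4% in all. Without GSK126 replicate 3, 18 genes were higher without overlap and 7 lower, or 32.9%, against a background of 22.7% higher and 21.9% lower, 44.6% in all. Both shares, pooled over direction, were below those of the tested genes at large. Without GSK126 replicate 3 the higher genes, 18 of 76, stood near their background of 22.7%. The lower genes, 7 of 76, stood below theirs of 21.9%. At an unadjusted p below 0.05, 1 gene was higher and 2 lower (Ndufs1 and Cox7a2), against 14.4% higher and 13.1% lower over all genes, 27.5% in all. Without GSK126 replicate 3, 8 were higher and 3 lower at that threshold, against 13.4% higher and 13% lower over all genes, 26.5% in all. DESeq2 and limma-voom likewise called no member lower with all libraries. The 95% interval of the fold change lay within a change of 1.5-fold in either direction for 63 of the 76 genes and within 2-fold for all 76.

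**Figure D4:**
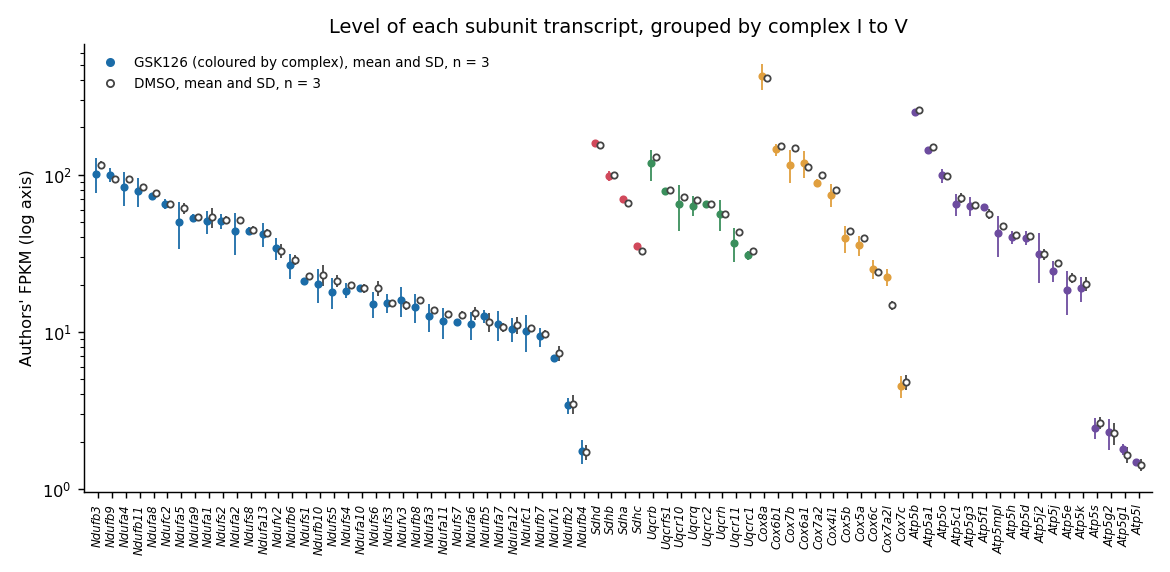
The authors' FPKM of the 76 genes on a log axis, grouped by complex, as mean and SD of 3 libraries, with GSK126 (filled) left of DMSO (open). Averaged over all libraries, Cox8a is highest at 420 FPKM and Atp5l lowest at 1.45 FPKM. The FPKM of Atp5l imply a length of 7757 bases. Of the 50-base stretches of Atp5l, 9.99% occur in other annotated transcripts, so its level is uncertain.

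The deviation of GSK126 replicate 3 was set beside coding length, taken as the longest coding sequence of each gene. The coding sequences of the 76 genes had a median of 426 bases, from 156 to 2181, against 1419 bases for the other tested protein-coding genes. Among the 18 genes under 300 bases the median deviation was -0.60, against -0.21 for 187 other genes of that length and -0.68 for 10 cytosolic ribosomal protein genes. Between 300 and 600 bases it was -0.37 for 37 subunit genes, -0.12 for 1123 other genes and -0.33 for 48 ribosomal protein genes. Between 600 and 1200 bases it was -0.10 for 12 subunit genes and -0.03 for 3227 others, and from 1200 to 2400 bases -0.07 for 9 subunit genes and 0.02 for 4277 others. The shortest class of subunit genes thus had the most negative deviations, and other short genes deviated in the same direction, less over all others of that length and by a like amount in the ribosomal protein genes. Replicate 3 was the lowest of 6 libraries for 94.4% of the subunit genes under 300 bases and 50.8% of the others of that length. For the 10 cytosolic ribosomal protein genes of that length the share was 90%. Between 300 and 600 bases the shares were 73.0% for subunit genes, 40.1% for others and 81.25% for ribosomal protein genes. Over the 76 genes, Spearman's rho between coding length and the deviation was 0.611, given as a description across genes of the same libraries, and it was 0.302 over 11486 others. What part coding length has in the deviation was not tested.

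**Figure D5:**
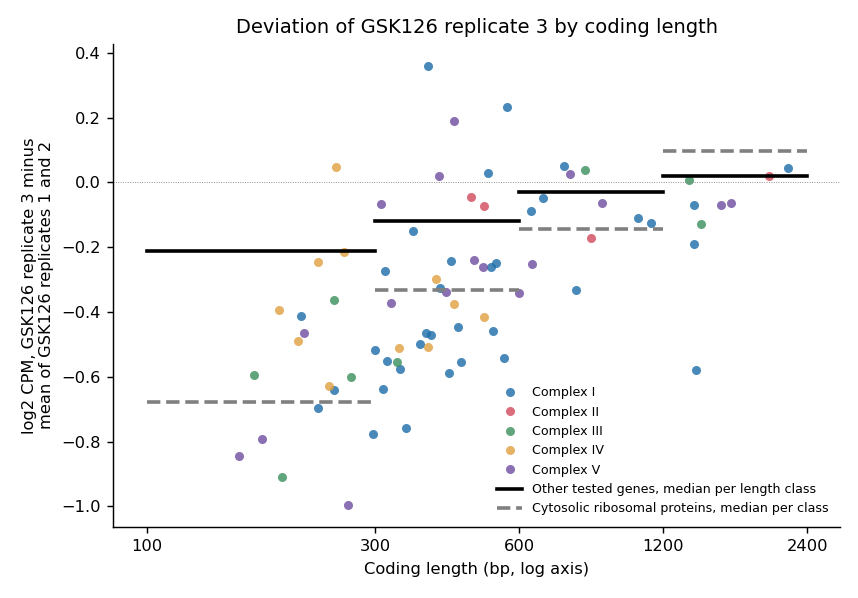
Deviation of GSK126 replicate 3 from the mean of the other GSK126 libraries (log2 CPM) against coding length (bases, log axis). Points are the 76 subunit genes, and solid lines give the median of other tested genes in each length class. Dashed lines give the median of genes with a cytosolic ribosomal protein symbol, which in the longer classes may include Rps6k kinase genes. Subunit genes under 300 bases have a median of -0.60, and those of 1200 bases and more a median of -0.07.

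The 13 subunits encoded in mitochondrial DNA form the rest of the complexes. None of the 13 passed the test (0 also at an unadjusted p below 0.05), their median log2 fold change was 0.01 both with and without GSK126 replicate 3, and that library was the lowest of 6 for 3 and the highest for 7 of the 13. They took 6.23%, 6.21% and 6.55% of the counts with GSK126 and 5.79%, 6.05% and 6.56% with DMSO. The most abundant, mt-Co1, the catalytic subunit of complex IV, had a log2 fold change of 0.10 (SE 0.05, edgeR adjusted p 0.266). Of 10 further nuclear genes of the chain that the symbol rule leaves out, none passed the test (1 was higher at an unadjusted p below 0.05), and the median was -0.07 with all libraries and -0.02 without replicate 3. Among them cytochrome c1, Cyc1, averaged 174 ± 4.68 CPM with GSK126 and 170 ± 10.3 CPM with DMSO (SD, n = 3 each).

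Calls among the assembly factors are given by list, in a comparison where 5.87% of all genes were called higher and 5.18% lower. Of 27 genes for the assembly of complexes IV and V, 1 fell and none rose. The gene that fell was Coa5, a complex IV assembly factor, with 190 ± 1.97 CPM with GSK126 and 232 ± 11.9 CPM with DMSO (SD, n = 3 each; log2 fold change -0.28, SE 0.05, edgeR adjusted p 0.0137, and 0.0505 without DMSO replicate 2). Without GSK126 replicate 3, Coa5 was again called lower and Higd1a, a supercomplex-associated protein induced by hypoxia, was called higher. Higd1a had 34.2, 33.9 and 24.1 CPM with GSK126, against 22.5, 20.6 and 18.1 CPM with DMSO, with a log2 fold change of 0.59 (edgeR adjusted p 0.0513) with all libraries and 0.74 (edgeR adjusted p 0.0123) without that replicate. Of 15 complex I assembly genes, 1 fell and none rose. Ndufaf6 averaged 7.56 ± 0.269 CPM with GSK126 and 10.2 ± 0.576 CPM with DMSO (SD, n = 3 each; edgeR adjusted p 0.0368), and the call was lost in each of the 6 fits that left out 1 library, with adjusted p up to 0.121. None of the 10 assembly genes of complexes II and III passed the test, with 2 lower at an unadjusted p below 0.05.

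Of 78 mitochondrial ribosomal protein genes, whose products translate the subunits encoded in mitochondrial DNA, 6 fell and none rose, with a median log2 fold change of -0.16, and -0.11 without GSK126 replicate 3. Mrpl2 had 23.0, 20.0 and 20.2 CPM with GSK126, against 29.8, 31.2 and 31.0 CPM with DMSO. Its groups were well apart, the log2 fold change was -0.54 (SE 0.08, edgeR adjusted p 0.00895), and the call held without any single library, with adjusted p up to 0.0428. Mrps18b (log2 fold change -0.40) and Mrps7 (-0.26) were next among the 6. The Mrps18b call was lost in 6 and the Mrps7 call in 5 of the 6 fits that left out 1 library, with adjusted p up to 0.0942 and 0.121. Without GSK126 replicate 3, 3 of the 78 were called lower. The 6 of 78 stand against 5.18% of all genes called lower.

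Of 91 genes with a cytosolic ribosomal protein symbol (Rpl or Rps and a number, or Rplp), 2 fell and none rose. Their median log2 fold change was -0.18, and -0.07 without GSK126 replicate 3. The symbol rule does not leave out Rps6k kinase genes, and coding lengths in this list reached 3168 bases. Rpl10a averaged 160 ± 13.1 CPM with GSK126 and 206 ± 2.76 CPM with DMSO (SD, n = 3 each; edgeR adjusted p 0.0145, lost without DMSO replicate 1 or 2, up to 0.0640). Of 18 genes of the tricarboxylic acid cycle and pyruvate dehydrogenase, 1 was called higher and 1 lower with all libraries, and 1 higher and 2 lower (Idh3a and Dld) without GSK126 replicate 3. Idh3a, a subunit of the NAD-dependent isocitrate dehydrogenase, fell to 214 ± 6.16 CPM with GSK126, against 250 ± 3.33 CPM with DMSO (SD, n = 3 each; edgeR adjusted p 0.0174). The Idh3a call was lost in 4 of the 6 fits that left out 1 library, with adjusted p up to 0.0714.

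Among 17 regulators of respiratory genes 3 rose and 1 fell, against 5.87% of all genes called higher and 5.18% lower. Their median log2 fold change was -0.06, and -0.09 without GSK126 replicate 3. Epas1, which encodes the hypoxia-inducible factor HIF-2α, had 12.3, 11.1 and 12.3 CPM with GSK126, against 5.88, 6.76 and 5.93 CPM with DMSO (log2 fold change 0.94, SE 0.11, edgeR adjusted p 0.00366). Myc, a transcription factor that drives growth genes, had 33.9, 25.9 and 31.4 CPM with GSK126, against 48.3, 49.7 and 47.4 CPM with DMSO (log2 fold change -0.67, SE 0.10, edgeR adjusted p 0.00945). Both calls held without any single library. Ppargc1a, which encodes PGC-1α, had 347, 347 and 407 CPM with GSK126, against 282, 247 and 265 CPM with DMSO (log2 fold change 0.47, SE 0.08, edgeR adjusted p 0.0126, and 0.0520 without DMSO replicate 2). Hif1a had a log2 fold change of 0.32 (SE 0.06, edgeR adjusted p 0.0176), and its call was lost without any 1 of the 3 DMSO libraries, with adjusted p up to 0.0707. All 4 of these genes kept their direction in every library, with no overlap between GSK126 and DMSO. Of the 17 regulators, 3 were higher without overlap and 7 lower (58.8%). The background over all tested genes was 17.6% higher and 16.8% lower, 34.4% in all. Nrf1, which encodes the factor whose motif is shown above, averaged 29.2 ± 3.03 CPM with GSK126 and 28.2 ± 0.850 CPM with DMSO (SD, n = 3 each; edgeR adjusted p 0.760).

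At the read threshold, Ndufb4 lay just inside, with 58, 51 and 71 reads with GSK126 and 60, 60 and 48 reads with DMSO. An annotated pseudogene named for it had 501 reads over all libraries, and 18.3% of its 50-base stretches occur in other transcripts, so its level is uncertain. The next gene inside was Atp5g2, with 406 reads over all libraries. Just outside lay Ndufa4l2, with 28 reads over all libraries, then Cox6a2 and Cox7a1. Of the 76 genes, 14 share exons with a neighbour whose reads came to 10% or more of their own, and 62 do not. Of the genes described above, Ndufb5 shares 616 bases with Mrpl47, Atp5f1 337 with Wdr77, Cox4i1 154 with Emc8, Ndufa11 70 with Vmac, Ndufs6 30 with Mrpl36 and Ndufs1 9 with Eef1b2, and reads of such pairs cannot be told apart without a stated strand setting. Of the partners, 2 were themselves called higher, Braf beside Ndufb2 and Tmco6 beside Ndufa2. The median log2 fold change over the 62 genes without such a partner was -0.07, and 0.03 without GSK126 replicate 3.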

How the data were processed

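RNA was sequenced from 6 B16F10 samples, 3 treated with GSK126 and 3 with DMSO, grouped by their treatment label. Per the submitters' processing notes, reads were processed with CASAVA 1.8 and HISAT2 against GRCm38.p4/mm10; the sources used here give no counting tool, strand setting or annotation release. The authors deposited read counts per gene, not normalized and used for all tests, and FPKM values, used for levels per length; within each gene the deposited FPKM were proportional to counts over library totals, to within a ratio of 1.000009 over 10025 genes.

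Counts were tested in R 4.3.3 with edgeR 4.0.16 (filterByExpr, TMM, quasi-likelihood F test, group as the only term), with Benjamini-Hochberg adjustment over all 13601 genes and a threshold of 0.05; standard errors were derived from the F statistic. CPM use TMM-scaled library sizes. A deviation is a library's log2(CPM + 0.5) minus the mean of the other 2 of its group. The script was tested on simulated counts, with 100 genes changed 1.5-fold and 100 changed 2-fold. The edgeR test recovered 55 of the former and 95 of the latter, and called 16 unchanged genes. Replicates differed beyond counting noise, with a chi-square of 7.12 to 13.3 times its degrees of freedom in pairs within a group. Precision is limited by 3 samples per group. Alternatives were DESeq2 1.42.0, limma 3.58.1 (voom, and log2(FPKM + 0.1) or log2(FPKM + 1)), other scalings, no filter, a replicate block, and leaving out each library or the genes that share exons.

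Coding lengths, shared exons and shared 50-base stretches came from GENCODE M21, which holds all 76 identifiers, 72 with the same start and end. Promoters came from RefSeq. The members and lists were chosen with earlier results of these data known. Genes were named by a rule: members that passed, the most abundant and the most changed of each complex, isoform pairs, those with the widest deviation in GSK126 replicate 3, those at the read threshold, and up to 3 changed genes or else the most abundant of each other list. Ndufs1, Ndufv3, Sdha, Uqcrc2, Higd1a, Dld, Hif1a and Nrf1 were named after their values were seen. A gene of the tricarboxylic acid cycle list is not reported here.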

Additional observations from a re-analysis of the deposited data

How the results depend on the processing

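The count of subunit genes called higher was 0 with a replicate block (edgeR adjusted p 0.0626 for Cox7a2l), against 1 with all libraries, and that fit called 408 genes in all instead of 1503. The replicate numbers were not treated as pairs, since the deviations of samples with the same number correlated at 0.0132, -0.00194 and -0.0628. With each library left out in turn, 0 to 1 genes were called higher and 0 to 1 lower, and the median log2 fold change lay between -0.12 and 0.03. The 1 lower gene was Cox7b without GSK126 replicate 3. The counts were 1 higher and 0 lower under the other scalings, DESeq2, limma-voom, the FPKM fits, without a filter on low counts and without genes that share exons, with medians between -0.08 and -0.07. Over all genes, the number called was 899 without a filter, 889 on FPKM without a filter and 529 to 1243 with 1 library left out. Of 416 refits of 26 named members, 411 stayed on their side of the threshold (34 of the refits, none with a call, had the other sign), 4 ended the call of Cox7a2l and 1 made that of Cox7b. Depth limits Ndufb4 most, at 48 to 71 reads in a library, and its sequence is partly shared with pseudogenes.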
